A study of Mus musculus with 4 samples.

Results

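The mTOR, AMPK and FOXO nutrient sensors are 10 genes whose products tell a cell whether growth factors, amino acids and energy are at hand: Igf1r, Akt1, Tsc1, Tsc2, Mtor, Rptor, Rictor, Prkaa1, Foxo1 and Foxo3. They were chosen by symbol from the 31017 gene symbols of the count tables, all 10 were found, and all 10 were among the 12035 genes with enough counts to be tested. The data are RNA sequencing of monocytes sorted from mouse bone marrow, with 2 libraries from mice aged 18 months (aged) and 2 libraries from mice aged 3 months (young). All 4 libraries came from wild-type C57BL/6 animals, carry atherosclerosis as the labelled disease, and received no labelled treatment. By its title the series asks how marrow age bears on clones of smooth muscle origin in atherosclerotic plaques. No label tells whether the 2 libraries of an age stem from different animals or from pools, so a p-value here reflects the spread among these 4 libraries only, and part of it may be technical.

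When insulin or insulin-like growth factor binds its receptor, PI3-kinase activates the kinase AKT. AKT phosphorylates the TSC2 subunit of the TSC complex and the FOXO transcription factors, which relieves the brake on mTOR complex 1 and keeps FOXO out of the nucleus. mTOR complex 1, which holds raptor, drives protein and lipid synthesis and restrains autophagy when amino acids are present at the lysosome, while mTOR complex 2, which holds rictor, phosphorylates AKT. AMPK senses low cellular energy and opposes mTOR complex 1 through TSC2 and raptor. In macrophages and monocytes these kinases are known to link metabolism to activation and differentiation. Their activity is set largely by phosphorylation, which RNA sequencing does not measure.

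Mtor was the 1 gene of the 10 that passed the test, and its RNA was lower in aged monocytes. Counts were scaled to CPM, which divides each count by the TMM-adjusted library size and sets libraries of unequal depth on 1 scale, and genes were tested with edgeR's quasi-likelihood F-test at a Benjamini-Hochberg adjusted p of 0.05 over all tested genes. Of the 10 genes, 10% passed, where 5.77% of all tested genes did (694 of 12035), so the number called was near the background; 0 were higher, beside 2.87% of all tested genes, and 1 was lower, beside 2.89%. In the other 9 genes the test did not pass, with changes of at most 0.35 on the log2 scale in either direction. Of the 10, 8 had a negative log2 change, and the median over the 10 was -0.19, beside -0.0044 over all tested genes, of which 50.7% were negative. An unadjusted p under 0.05 was found in 5 of the 10 genes and in 21.1% of all tested genes. In bulk RNA, fewer cells of a type and less RNA per cell cannot be told apart.

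The sequences just upstream of Mtor and of the pathway genes Fnip1 and Txnip are shown as examples of genes that fell in aged monocytes. These 3 windows hold promoter motifs searched for here, whereas those of Fnip2 and Rps6, which also fell, hold none. The 3 sequences hold different sets of motifs. All 3 have CCAAT boxes, which is thus not a trait of every gene that fell. Each is the 250 bases before the start of the gene in RefSeq (build GRCm38.p6), 5′ to 3′ on the gene's own strand, which is the plus strand for all 3 of them. Capitals mark the CCAAT box (CCAAT), the forkhead core that FOXO proteins can bind (GTAAACA) and the E-box bound by TFEB, TFE3, MYC and others (CACGTG), each searched on both strands, with no overlap between them in these windows.
Mtor (chr4:148448332-148448581): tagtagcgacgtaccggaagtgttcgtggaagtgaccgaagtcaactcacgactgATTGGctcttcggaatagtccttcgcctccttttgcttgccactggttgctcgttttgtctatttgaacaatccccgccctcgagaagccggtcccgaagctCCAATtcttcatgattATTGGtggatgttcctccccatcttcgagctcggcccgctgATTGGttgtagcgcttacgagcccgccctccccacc
Fnip1 (chr11:54437929-54438178): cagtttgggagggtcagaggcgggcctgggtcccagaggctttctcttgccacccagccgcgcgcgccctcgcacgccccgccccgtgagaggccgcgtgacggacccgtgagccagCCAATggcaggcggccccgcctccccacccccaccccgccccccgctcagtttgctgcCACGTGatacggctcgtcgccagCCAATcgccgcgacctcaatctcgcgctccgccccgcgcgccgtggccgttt
Txnip (chr3:96557707-96557956): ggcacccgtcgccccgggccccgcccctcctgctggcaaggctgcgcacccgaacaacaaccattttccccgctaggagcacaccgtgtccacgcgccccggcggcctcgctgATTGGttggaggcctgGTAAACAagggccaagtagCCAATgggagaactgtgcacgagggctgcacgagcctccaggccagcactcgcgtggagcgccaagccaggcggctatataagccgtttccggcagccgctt
The Mtor window held 4 CCAAT boxes, beginning 195, 93, 77 and 36 bases before the start, and neither of the other motifs. The Fnip1 window held 1 E-box, 75 bases before the start, with 2 CCAAT boxes. The Txnip window held 1 forkhead core, 121 bases before the start, with 2 CCAAT boxes, and overlaps an exon of the antisense gene Gm15441. Of 32851 RefSeq windows of this length, 33.8% held a CCAAT box, 6.02% the E-box and 3.17% the forkhead core. Among the 10 nutrient sensors, Mtor, Rictor and Foxo1 held a CCAAT box, Akt1 held the forkhead core in 1 of its 2 windows, and 0 of 10 held the E-box. Of the 8 pathway genes past the threshold, 6 had a window: 2 held the E-box (Fnip1, and Pik3ap1, which rose), 2 a CCAAT box (Fnip1 and Txnip) and 1 the forkhead core (Txnip), while Fnip2 and Rps6, which fell, and Atf3, which rose, held none of the 3 motifs. A match describes letters in a window and does not show that a factor binds there.

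The receptor of the pathway, Igf1r, encodes the receptor tyrosine kinase for insulin-like growth factor 1 (chromosome 7, 67952827 to 68233668 on GRCm38). Its RNA stood at 29.7 and 32.7 CPM in aged monocytes, against 35.5 and 39.2 CPM in young monocytes. Both aged libraries lay below both young ones, but the log2 change of -0.26 ± 0.10 (standard error, n = 2 per group, as for all log2 changes here) did not pass in edgeR (adjusted p = 0.171). Its 95% interval ran from -0.49 to -0.036. With per-library offsets for GC content and transcript length the change was -0.14, so its size depended on that correction.

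Akt1, the kinase that carries the signal from the receptor, was by far the most abundant of the 10 genes (chromosome 12, 112653821 to 112674884). It stood at 459 and 515 CPM in aged monocytes, against 433 and 452 CPM in young monocytes. The aged values lay above the young ones with a small gap, and the log2 change of 0.14 ± 0.065 did not pass in edgeR (adjusted p = 0.257, 95% interval -0.0066 to 0.28). Without aged replicate 1 it passed (0.22, adjusted p = 0.0349), and with that replicate as the lone aged library the change was 0.049. Its paralog Akt2 stood at 80.0 and 90.5 CPM in aged monocytes, against 82.2 and 86.9 CPM in young monocytes, and did not pass (0.012 ± 0.082, edgeR adjusted p = 0.952). Per kilobase of exon, Akt1 made up 90.9% and 90.8% of the summed reads of Akt1 and Akt2 in aged monocytes, against 90.2% and 90.1% in young monocytes. The groups did not overlap in this share, and its difference of 0.752 percentage points gave an exact permutation p of 0.33 (two-sided), which is the smallest that 2 libraries against 2 can give (adjusted p = 1 over the 6 families). The share of no family could therefore pass this test, here or below, and its p-values do not show that a share is unchanged.

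Tsc1 and Tsc2 encode hamartin and tuberin, the subunits of the complex that switches off RHEB, the activator of mTOR complex 1. Tsc1 (chromosome 2, 28641228 to 28691167) stood at 13.6 and 16.1 CPM in aged monocytes, against 17.7 and 20.2 CPM in young monocytes. Tsc2 (chromosome 17, 24595816 to 24632630) stood at 59.2 and 66.9 CPM in aged monocytes, against 74.0 and 72.6 CPM in young monocytes. In both genes the aged libraries lay below the young ones, and neither passed. The log2 change was -0.35 ± 0.14 for Tsc1 (edgeR adjusted p = 0.173, 95% interval -0.65 to -0.046) and -0.22 ± 0.084 for Tsc2 (edgeR adjusted p = 0.166, 95% interval -0.40 to -0.0325). Without aged replicate 1 the changes were -0.23 for Tsc1 and -0.13 for Tsc2, and without aged replicate 2 they were -0.48 for Tsc1 and -0.31 for Tsc2, none of them past the threshold. Tsc2 shares 693 exon bases with Pkd1 on the opposite strand. The libraries were strand-specific by the labels' protocols, but no source used here gives the strand setting of the counting. Reads of the 2 genes may therefore not have been told apart there. Tsc1 made up 16.0% ± 0.477 of the summed reads per kilobase of both subunits in aged monocytes and 17.4% ± 1.52 in young monocytes (SD, n = 2 each), and the groups overlapped (exact permutation p = 0.667).

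**Figure D1:**
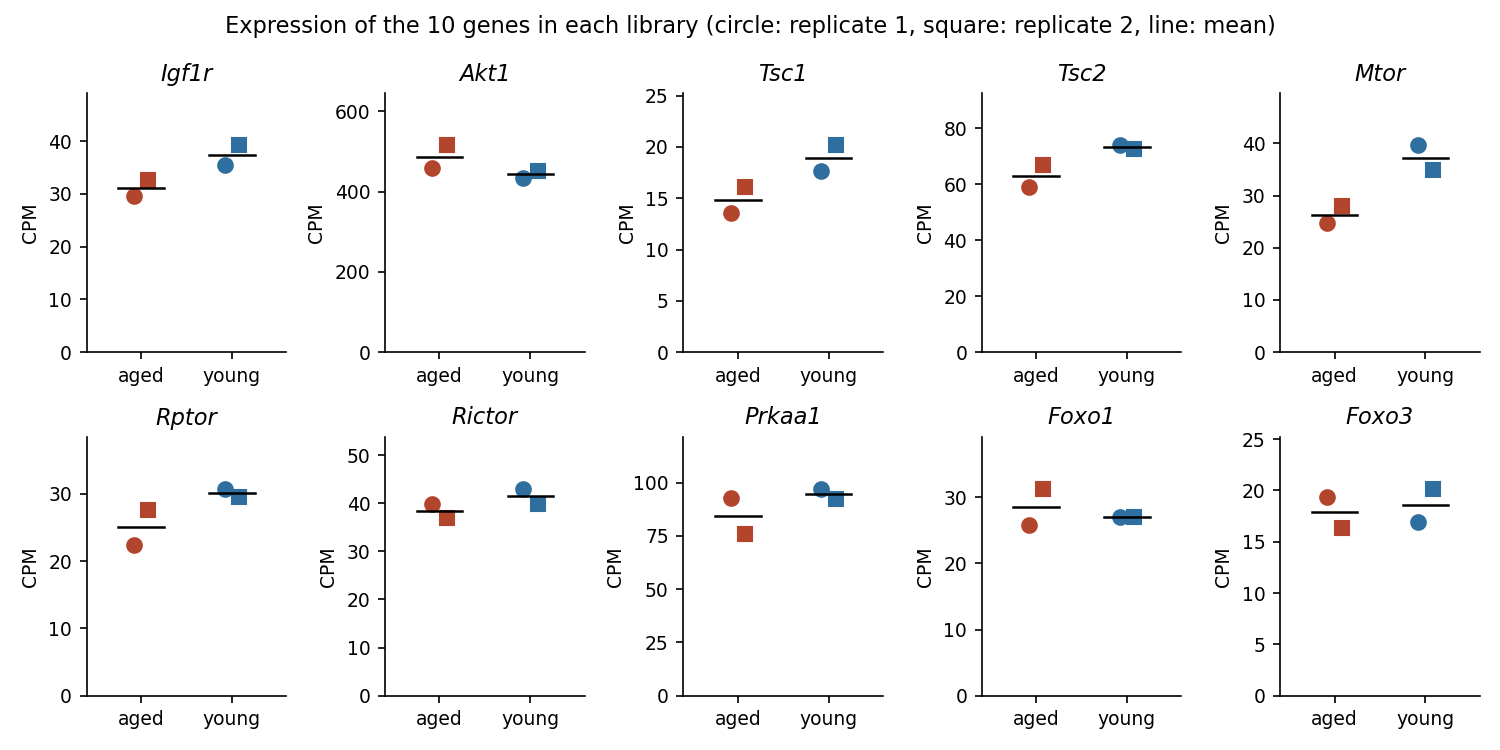
Expression of the 10 nutrient sensor genes in CPM (vertical axes, each from 0) in the aged libraries (red, left) and young libraries (blue, right) of each panel. Circles are replicate 1, squares replicate 2 and lines the mean of 2; for Mtor both aged points (24.7 and 28.0) lie below both young points (34.9 and 39.7), while the Foxo1, Foxo3, Rictor and Prkaa1 points overlap between ages.

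Mtor encodes the kinase shared by both mTOR complexes (chromosome 4, 148448611 to 148557683). It had 620 and 608 counts in aged libraries, against 1370 and 696 counts in young libraries, which is 24.7 and 28.0 CPM in aged monocytes, against 39.7 and 34.9 CPM in young monocytes. The highest aged value was below the lowest young one, and the gap between the groups was wider than that between the libraries of either age. Its mean fell to 26.4 ± 2.30 CPM in aged monocytes, against 37.3 ± 3.35 CPM in young monocytes (SD, n = 2 each), a log2 change of -0.51 ± 0.11 and 0.704 times the young level (edgeR adjusted p = 0.025, 95% interval -0.75 to -0.26). By p-value Mtor ranked 416 of the 12035 tested genes, whose median absolute log2 change was 0.152, and 10.8% of them had a larger absolute change. DESeq2 and limma-voom also called it (adjusted p = 0.0135 and 0.020). Without young replicate 1, the deepest library, the change was -0.41 and did not pass (adjusted p = 0.240), in a fit that called 197 genes in all. Without any 1 of the other 3 libraries it passed, with changes between -0.60 and -0.42.

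Raptor, encoded by Rptor, brings substrates to mTOR complex 1 (chromosome 11, 119602905 to 119899576). Rptor stood at 22.4 and 27.6 CPM in aged monocytes, against 30.7 and 29.5 CPM in young monocytes. The aged libraries lay below the young ones, with 1 of them close to the young values, and the log2 change of -0.27 ± 0.12 did not pass in edgeR (adjusted p = 0.224, 95% interval -0.53 to -0.0077). Its size rested on the aged libraries, at -0.13 without aged replicate 1 and -0.43 without aged replicate 2. Rictor, which defines mTOR complex 2 (chromosome 15, 6708379 to 6800401), stood at 39.9 and 36.9 CPM in aged monocytes, against 43.0 and 39.8 CPM in young monocytes. Its groups overlapped, the log2 change was -0.11 ± 0.094 (edgeR adjusted p = 0.544, 95% interval -0.32 to 0.097), and the sign turned with offsets for GC content and length (0.044). With 1 library left out it ranged from -0.17 without aged replicate 1 to -0.052 without young replicate 1. Per kilobase, Rptor held 44.9% ± 5.04 of the reads of the pair in aged monocytes and 47.7% ± 0.598 in young monocytes (SD, n = 2 each; exact permutation p = 1). The difference between the log2 changes of Mtor, Rptor and Rictor was not tested.

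Prkaa1 encodes a catalytic alpha subunit of AMPK (chromosome 15, 5143861 to 5181899) and was the second most abundant of the 10 genes. It stood at 92.7 and 75.8 CPM in aged monocytes, against 97.1 and 92.1 CPM in young monocytes. Aged replicate 1 fell among the young libraries and aged replicate 2 below them, and the log2 change of -0.17 ± 0.095 did not pass in edgeR (adjusted p = 0.352, 95% interval -0.38 to 0.045). Without aged replicate 1 it passed (-0.32, adjusted p = 0.0325), and without aged replicate 2 the change was -0.032. Prkaa2, the other alpha subunit gene, had 0 counts in all 4 libraries, so Prkaa2 could stand at up to 0.120 and 0.138 CPM in aged monocytes and up to 0.0868 and 0.151 CPM in young monocytes (3 counts per library). All AMPK alpha reads thus came from Prkaa1 at this depth.

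The FOXO genes encode transcription factors that AKT excludes from the nucleus. Foxo1 (chromosome 3, 52268336 to 52353221) stood at 25.9 and 31.3 CPM in aged monocytes, against 26.9 and 27.0 CPM in young monocytes, so the young values lay between the aged ones. Foxo3 (chromosome 10, 42181841 to 42276755) stood at 19.3 and 16.4 CPM in aged monocytes, against 16.9 and 20.2 CPM in young monocytes, again with overlap. Neither passed in edgeR: Foxo1 had a log2 change of 0.081 ± 0.11 (adjusted p = 0.731, 95% interval -0.17 to 0.34) and Foxo3 of -0.045 ± 0.14 (adjusted p = 0.891, 95% interval -0.35 to 0.26). The intervals leave room for changes of up to 0.35 in size, and both signs turned when 1 library was left out. Of the other family members, Foxo4 had 13 and 13 counts in aged libraries, against 11 and 15 counts in young libraries, and Foxo6 had 3 and 0 counts in aged libraries and 0 in both young ones. Per kilobase, Foxo1 held 52.1% and 60.7% of FOXO reads in aged monocytes, against 57.2% and 52.0% in young monocytes (exact permutation p = 0.667). Foxo1 shares 674 exon bases with the antisense gene Gm20402 and Rptor shares 84 with Rptoros, with the same limit on strand as for Tsc2.

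**Figure D2:**
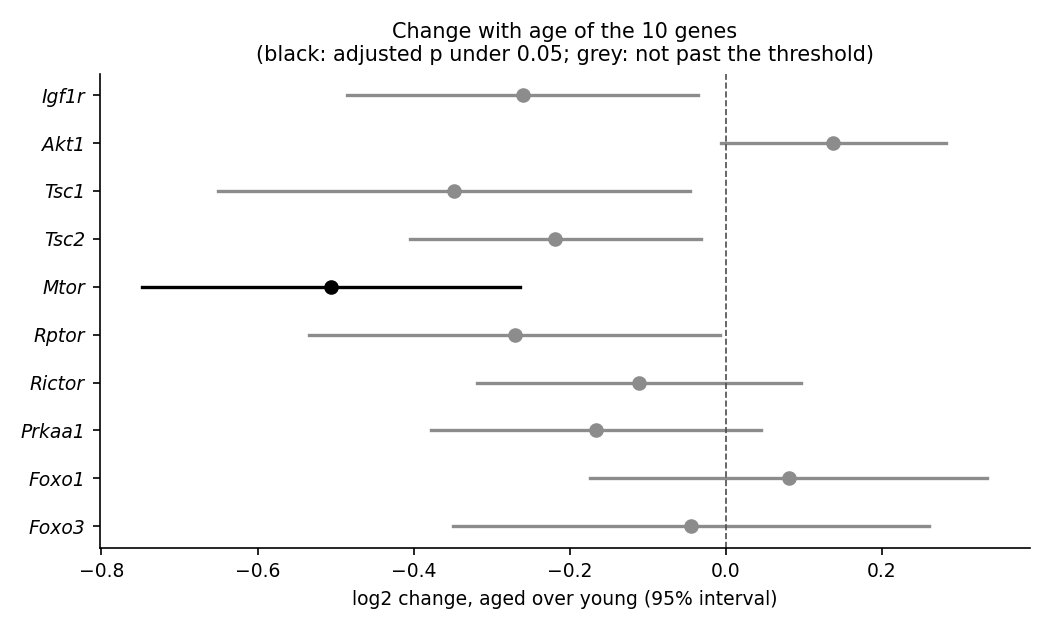
Log2 change of each nutrient sensor gene in aged over young monocytes (horizontal axis) with its 95% interval from edgeR, n = 2 libraries per age. Mtor (black, -0.51) is the 1 gene past the threshold; the intervals of Rictor, Akt1, Prkaa1, Foxo1 and Foxo3 include 0.

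Compared per kilobase of exon, the 10 genes spanned a wide range of levels. Akt1 averaged 113 CPM per kilobase over the 4 libraries, above 96.5% of the tested genes with a known length, and Prkaa1 averaged 19.2 (78.3%) and Tsc2 7.08 (56.7%). Foxo1 averaged 3.21, Mtor 3.15, Foxo3 2.40, Rictor 2.36, Rptor 2.05, Igf1r 2.04 and Tsc1 1.43 CPM per kilobase. Akt1, Prkaa1 and Tsc2 were each apart from their neighbours in every library. From Foxo1 down to Igf1r the range of each gene over the 4 libraries overlapped that of the next. Genes further apart could be separate, as the lowest Foxo1 value (2.99) was above the highest Foxo3 value (2.66). Within each library Rictor lay above Rptor. Foxo1 lay above Mtor in both aged libraries and below it in both young ones. Tsc1, the lowest, lay below Igf1r in every library. Akt1 and Prkaa1 also had the shortest exon sequence of the 10 (4098 and 4655 bases, up to 16930 bases for Rictor), and GC content ranged from 40.2% in Prkaa1 to 59.7% in Akt1. Prkaa1 and Rictor lie on the same chromosome, 1526479 bases apart. Counts of single genes ranged from 340 to 14972 per library, which gives a counting error between 5.42% and 0.817%, with no allowance for duplicate reads of one molecule.

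**Figure D3:**
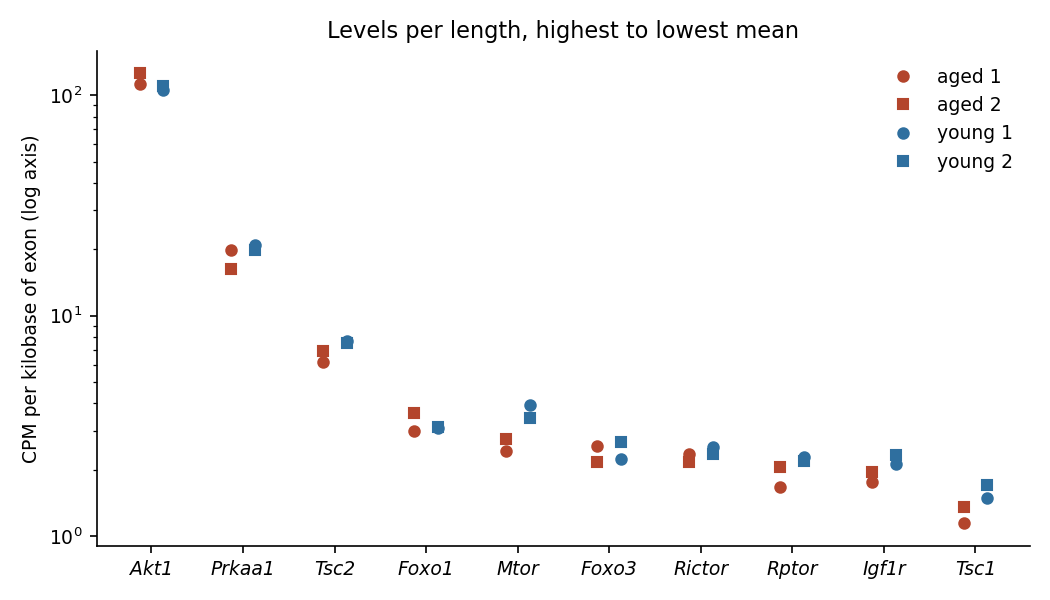
Level of each nutrient sensor gene in CPM per kilobase of merged exons (vertical log axis), from the highest mean to the lowest, with aged libraries in red and young libraries in blue. Akt1 (105.7 to 125.8), Prkaa1 (16.3 to 20.9) and Tsc2 (6.15 to 7.69) stand apart, and from Foxo1 to Igf1r each range overlaps the next.

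The 3 genes with profiles over the 4 libraries closest to that of Mtor, among 8994 named genes of at least 5 CPM and by Euclidean distance between centred log2 CPM, were Fam83d (distance 0.0256), Lhx1 (0.0412) and Dusp10 (0.0491). Fam83d stood at 11.9 and 13.4 CPM in aged monocytes, against 18.9 and 17.1 CPM in young monocytes, a log2 change of -0.52 ± 0.13 (edgeR adjusted p = 0.049). It did not pass without aged replicate 1 (0.0958), young replicate 1 (0.3331) or young replicate 2 (0.0756). Lhx1 (-0.52 ± 0.16) and Dusp10 (-0.48 ± 0.20) did not pass (edgeR adjusted p = 0.0861 and 0.210). With 4 libraries such likeness is a description of these samples.

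Among the other genes of the pathway, 8 of 133 tested genes in 8 lists passed, 3 higher and 5 lower in aged monocytes. That is 6.02% of them, near the 5.77% over all genes, and their groups did not overlap in 53.4%, beside 51.6% of all tested genes and 60% of the 10 nutrient sensors. Their median log2 change was -0.010. The share with an unadjusted edgeR p under 0.05 was 21.8%, beside 21.1% of all tested genes, which is the background for such counts in the lists below. Fnip1, Fnip2, Rps6 and Txnip were among those that fell, and Pik3ap1, Atf3 and Trib1 were those that rose.

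Genes that report amino acids to mTOR complex 1 at the lysosome included 2 that fell of 31 tested, both partners of folliculin. Folliculin and its interacting proteins FNIP1 and FNIP2 act on the Rag GTPases. Fnip1 (chromosome 11, 54438199 to 54518235), whose promoter with its E-box is printed above, fell to 43.8 and 43.9 CPM in aged monocytes, against 58.8 and 62.1 CPM in young monocytes. The aged libraries were nearly equal and well below the young ones, with a log2 change of -0.46 ± 0.082 (edgeR adjusted p = 0.0101). Fnip2 fell to 24.5 and 29.7 CPM in aged monocytes, against 35.7 and 38.5 CPM in young monocytes (-0.45 ± 0.11, edgeR adjusted p = 0.0453). Flcn, named after its values were seen, stood at 66.2 and 58.9 CPM in aged monocytes, against 73.0 and 70.1 CPM in young monocytes, and did not pass (-0.20 ± 0.084, adjusted p = 0.218). The median log2 change of the list was -0.025. Fnip1 did not pass without young replicate 1 (0.0529) or young replicate 2 (0.0566). Fnip2 did not pass without aged replicate 1 (0.116), young replicate 1 (0.144) or young replicate 2 (0.162), with upper-quartile scaling (0.0515) or with GC and length offsets (0.0605).

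Of 16 tested substrates and outputs of mTOR complex 1, Rps6, the ribosomal protein phosphorylated by S6 kinase, passed. It fell to 153 and 168 CPM in aged monocytes, against 207 and 196 CPM in young monocytes (-0.33 ± 0.068, edgeR adjusted p = 0.0209), and did not pass without young replicate 1 (0.190). Ribosomal protein genes have many near-identical pseudogenes, so its reads are uncertain. The list's median was -0.056. Of 10 tested partners within the mTOR complexes 0 passed in edgeR, DESeq2 or limma-voom, 2 had an unadjusted edgeR p under 0.05, and the median was 0.13. The smallest p was that of Deptor, an inhibitory subunit, at 41.6 and 43.5 CPM in aged monocytes, against 31.9 and 36.3 CPM in young monocytes (0.32 ± 0.098, edgeR adjusted p = 0.0861). It shares exon bases with Gm9920 on the opposite strand. Deptor passed with GC and length offsets (0.39, adjusted p = 0.0408) and with no low-count filter (adjusted p = 0.0392).

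In the PI3-kinase and AKT list 1 of 25 tested genes rose, with a median of -0.0088. Pik3ap1, an adaptor that couples receptors of myeloid and B cells to PI3-kinase (chromosome 19, 41272377 to 41385102), rose to 94.7 and 98.8 CPM in aged monocytes, against 63.4 and 61.9 CPM in young monocytes. The libraries of each age lay close together, and the log2 change of 0.63 ± 0.073 (edgeR adjusted p = 0.000868) also passed with each library left out (adjusted p at most 0.0086). Of 11 tested insulin and IGF genes 0 passed in edgeR, 0 in DESeq2 and 1 in limma-voom, 1 had an unadjusted edgeR p under 0.05, and the median was -0.016. That gene was Gab2, a docking adaptor, at 41.0 and 38.2 CPM in aged monocytes, against 48.9 and 51.6 CPM in young monocytes (-0.34 ± 0.088, edgeR adjusted p = 0.05003, just outside the threshold), and it passed without aged replicate 1 (0.0268). Insr, the insulin receptor gene, stood at 46.2 and 41.6 CPM in aged monocytes, against 50.02 and 43.7 CPM in young monocytes (-0.098 ± 0.099, edgeR adjusted p = 0.620), with overlap. Per kilobase, Igf1r held 36.8% ± 3.30 of the reads of the 2 receptors in aged monocytes and 39.6% ± 3.93 in young monocytes (SD, n = 2 each; exact permutation p = 0.667).

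Of 16 tested AMPK subunits, upstream kinases and targets 0 passed in edgeR, 1 in DESeq2 and 0 in limma-voom, 3 had an unadjusted edgeR p under 0.05, and the median was -0.072. The smallest p was that of Acaca, which encodes acetyl-CoA carboxylase 1, an enzyme that AMPK inhibits. Acaca stood at 8.10 and 13.1 CPM in aged monocytes, against 15.5 and 22.4 CPM in young monocytes, with a wide spread within each age (-0.83 ± 0.23, edgeR adjusted p = 0.0613; 0.0192 in DESeq2). In edgeR it passed without aged replicate 2 (-1.21, adjusted p = 0.00662) and without young replicate 1 (-1.09, adjusted p = 0.0429). It did not pass without aged replicate 1 (-0.52, adjusted p = 0.079) or young replicate 2 (-0.55, adjusted p = 0.239).

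Of 22 tested FOXO family and target genes 2 fell, with a median of 0.052. Txnip, the thioredoxin-interacting protein that restrains glucose uptake (chromosome 3, 96557957 to 96561883), fell to 492 and 474 CPM in aged monocytes, against 672 and 661 CPM in young monocytes (-0.46 ± 0.053, edgeR adjusted p = 0.000703), and passed with each library left out. Its promoter is the one printed above with a forkhead core, and it shares 606 exon bases with Gm15441 on the opposite strand.

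Of 7 tested stress inhibitors 2 rose, with a median of 0.0054. Neither gene is mainly known as an inhibitor of mTOR complex 1. Atf3, a stress-induced transcription factor, rose to 35.5 and 37.5 CPM in aged monocytes, against 20.1 and 17.7 CPM in young monocytes (0.95 ± 0.11, edgeR adjusted p = 0.00072), and passed with each library left out. It is also held by the immediate early marker list. Trib1, a pseudokinase of myeloid differentiation, rose to 63.6 and 74.5 CPM in aged monocytes, against 48.7 and 49.6 CPM in young monocytes (0.49 ± 0.093, edgeR adjusted p = 0.0131), and did not pass without young replicate 1 (0.0982). Ddit4, the stress inhibitor REDD1, was named after its values were seen and was low, with 35 and 58 counts in aged libraries, against 109 and 93 counts in young libraries (-0.94 ± 0.36, edgeR adjusted p = 0.163).

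**Figure D4:**
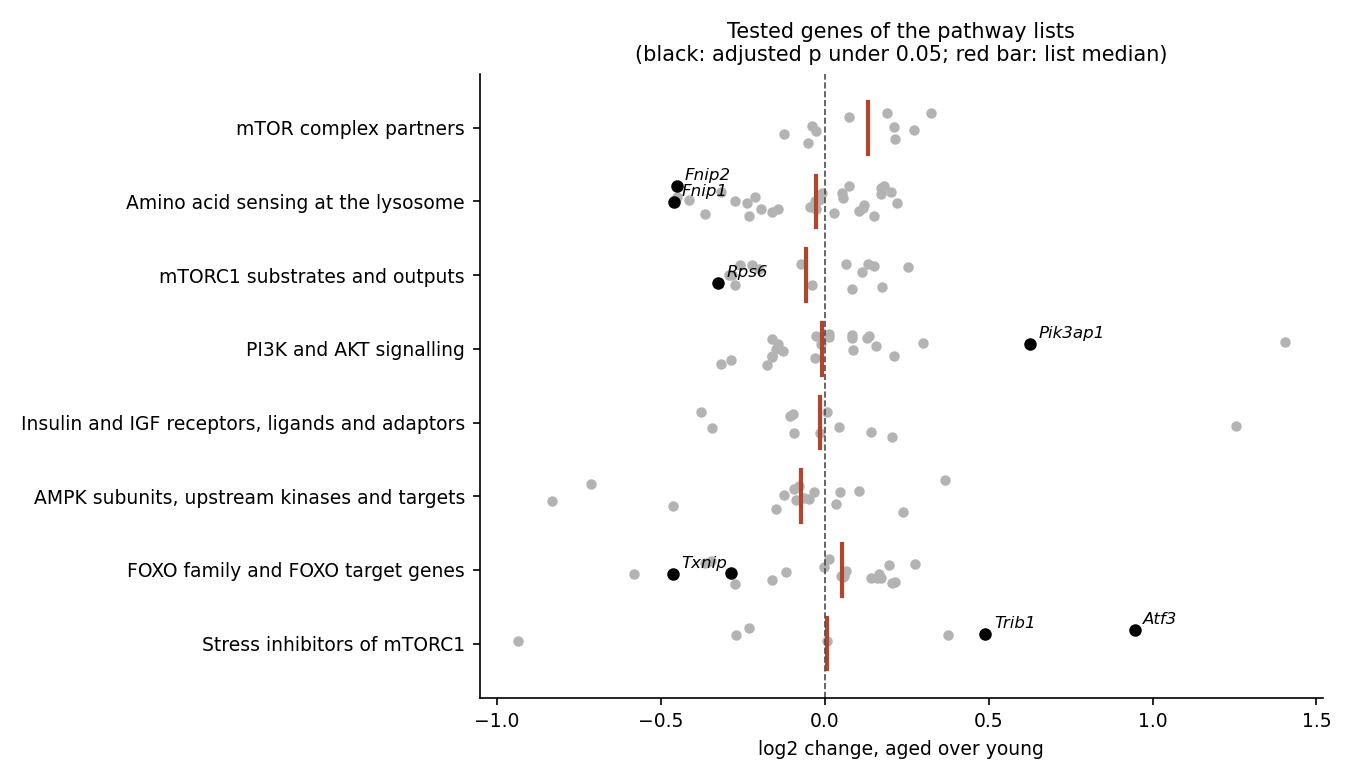
Log2 change in aged over young monocytes (horizontal axis) of every tested gene in the 8 pathway lists (rows), with genes past the threshold in black and all but 1 of them named, others in grey, and the list median as a red bar. The medians lie between -0.072 and 0.13, and the genes past the threshold run from Fnip1 and Txnip (-0.46 each) to Atf3 (0.95).

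The libraries held 20159129 to 34278754 counts and carried monocyte markers, with Lyz2 at 34835 and 34698 CPM in aged monocytes, against 32747 and 35199 CPM in young monocytes, and F13a1 at 3877 and 3383 CPM in aged monocytes, against 4098 and 4248 CPM in young monocytes. Of the 12 monocyte markers 2 were higher (Csf1r and Spi1) and 2 lower (Ly6c2 and Mpeg1). The background for each list here is the 5.77% of all tested genes that passed in either direction. For an unadjusted edgeR p under 0.05 the background is 21.1%. Markers of progenitors, led by Prtn3 and Myb, summed to 395 and 397 CPM in aged libraries, against 527 and 483 CPM in young libraries. Most of each sum was Prtn3, at 328 and 325 CPM in aged libraries, against 440 and 394 CPM in young libraries. Kit and Prtn3 were lower among 6 tested of 8, and Mecom was at 0 in all libraries. Of the 6 tested, 5 had a negative log2 change and 1 a positive one. Immediate early genes summed to 3705 and 3834 CPM in aged libraries, against 1896 and 1872 CPM in young libraries, with 11 of 15 higher and none at 0. B cell markers, led by Ighm and Igkc, summed to 1114 and 1109 CPM in aged libraries, against 745 and 752 CPM in young libraries, with 5 of 11 tested higher and none at 0. Neutrophil markers, led by S100a9 and S100a8, summed to 30966 and 31440 CPM in aged libraries, against 32016 and 30916 CPM in young libraries. These sums hold opposite changes, with 2 of 12 higher (Ngp and Ltf) and 4 lower (Elane, Mpo, Cxcr2 and S100a8). Dendritic cell markers had 2 of 10 higher, Flt3 and Itgax, while the most abundant, Irf8 and Cd209a, did not pass. Marrow macrophage markers had 3 of 10 higher, C1qb, C1qc and Axl. The most abundant of that list, Slc40a1 and Adgre1, had negative log2 changes (-0.30 and -0.050) and did not pass. Erythroid markers (led by Hbb-bs and Hba-a1, 4 with an unadjusted p under 0.05) and T and NK cell markers (led by Nkg7 and Cd3d, 2 with an unadjusted p under 0.05) had 0 called in edgeR, DESeq2 and limma-voom. The part of these lists in the change of Mtor and of the pathway genes was not tested.

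**Figure D5:**
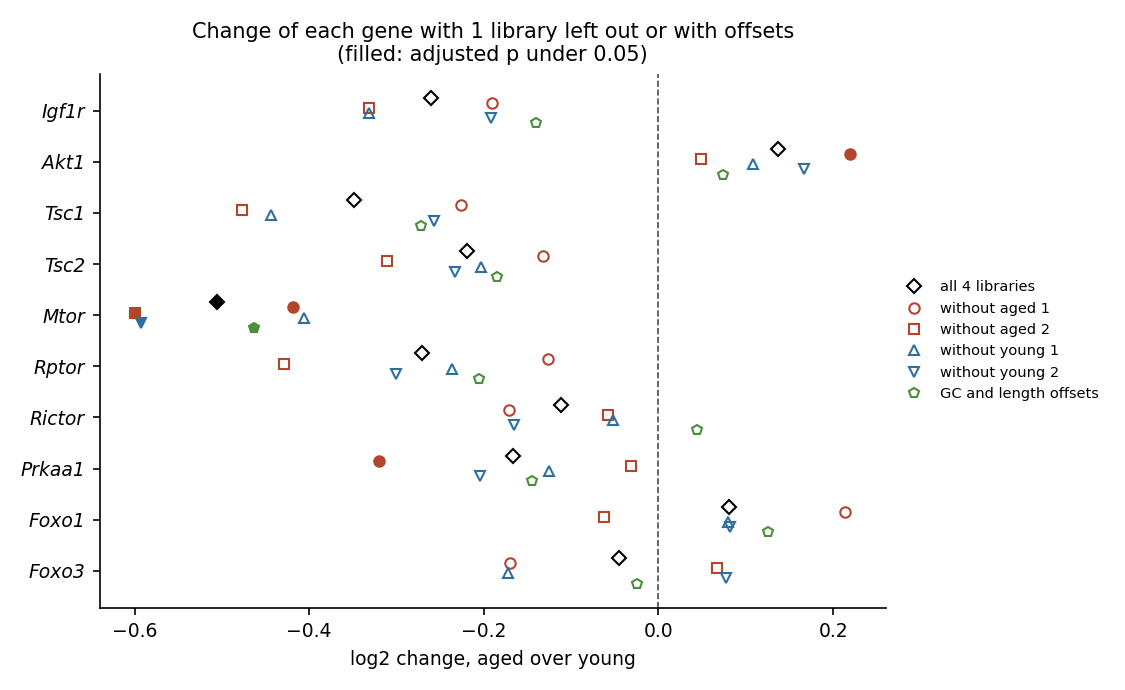
Log2 change in aged over young monocytes (horizontal axis) of each nutrient sensor gene with all 4 libraries, with each library left out, and with GC and length offsets; filled symbols have an adjusted p under 0.05 in edgeR. Mtor stays between -0.60 and -0.41 in these fits and is open without young replicate 1, while Foxo1, Foxo3 and Rictor have symbols on both sides of 0.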

How the data were processed

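Bone marrow monocytes sorted by flow cytometry were sequenced as 4 poly(A)-selected, dUTP strand-specific libraries, per the labels' protocols. For each library the authors deposited a table of unnormalized read counts by gene symbol. Tools listed in the submitters' processing notes, with no role stated, are STAR 2.5.3, HTSeq, cutadapt and DESeq2, with the build mm10; no source used here gives the annotation or the strand setting. Overlapping genes on opposite strands may therefore share reads.

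Genes were kept by filterByExpr (minimum count 10, total 15), scaled with TMM and tested for age, two-sided, with edgeR's quasi-likelihood F-test and Benjamini-Hochberg adjustment over 12035 genes. A standard error is the log2 change divided by the square root of F. Shares within families were compared by exact permutation over the 4 libraries. Positions and exon lengths came from GENCODE M21 (GRCm38), which matched 30477 of 31017 symbols once, and promoters from RefSeq. A count of 0 allows up to 3 counts; such limits cover counting error only. Members and lists were chosen with earlier results of these data known. Named were the 10 members, their families (an item is not reported here and is left out of the shares, while the list counts include every tested gene), up to 3 genes per direction past the threshold in each pathway list or else the gene with the smallest p, the 2 leading genes of each marker list, and the 3 nearest profiles. Marker genes past the threshold were also named in the monocyte, neutrophil, progenitor, dendritic cell and marrow macrophage lists. Alternatives were other scalings, filters and tools, GC and length offsets, a replicate block and each library left out. On simulated data with 11875 genes and 2 libraries per age, 50 genes were changed at each fold. Recovered were 13 at 1.25-fold, 33 at 1.5-fold, 41 at 2-fold and 48 at 4-fold, with 14 calls among unchanged genes. Fits were run in edgeR 4.0.16, with DESeq2 1.42.0 and limma 3.58.1 as alternatives, under R 4.3.3.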

Additional observations from a re-analysis of the deposited data

How the results depend on the processing

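Over 150 refits of the 10 nutrient sensor genes, 141 kept direction and side of the threshold, 1 lost a call (Mtor without young replicate 1), 3 gained one (Akt1 and Prkaa1 without aged replicate 1, Tsc2 under the replicate block, adjusted p = 0.0409) and 5 turned sign. The cause was not tested. Rictor turned to 0.044 with GC and length offsets and to 0.045 with the replicate block added. With 1 library left out, Foxo1 ranged from -0.063 to 0.21, Foxo3 from -0.17 to 0.077, Akt2 from -0.081 to 0.099, Foxo4 from -0.43 to 0.80 and Insr from -0.19 to 0.0065, and Insr was 0.0026 with the replicate block and offsets. Leaving out 1 library gave 197 to 1040 genes (116 to 452 higher, 81 to 588 lower), 0 to 3 nutrient sensors (0 to 1 higher, 0 to 2 lower) and 4 to 12 pathway genes (2 to 6 higher, 2 to 8 lower); the lone library of an age is then assumed to vary like the others. The lowest count of genes was without young replicate 1 and the highest without aged replicate 1.

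Without filtering on low counts 1399 genes (606 higher, 793 lower) and 17 pathway genes (6 higher, 11 lower) passed, and with GC and length offsets 6 pathway genes were higher. The replicate numbers are shared between ages but are not tied to a batch or animal by the labels: replicate 1 minus replicate 2 correlated at 0.0937 across 12035 genes between ages. With the replicate block 1817 genes (801 higher, 1016 lower), 2 nutrient sensors (both lower) and 25 pathway genes (10 higher, 15 lower) passed, and with offsets added 1812 genes (847 higher, 965 lower), 1 nutrient sensor (lower) and 27 pathway genes (12 higher, 15 lower). The Akt1 share of Akt1 and Akt2 reads differed by 1.14 points with no length correction. Depth limits low genes such as Foxo4 and Foxo6.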

Other observations

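Among factors that mTOR complex 1 restrains, 4 genes that did not pass are given here, chosen after their values were seen. Tfeb, a master regulator of lysosomal genes, stood at 149 and 159 CPM in aged monocytes, against 133 and 125 CPM in young monocytes (log2 change 0.25 ± 0.068, edgeR adjusted p = 0.0565). Tfe3, its relative, stood at 133 and 139 CPM in aged monocytes, against 120 and 122 CPM in young monocytes (0.17 ± 0.065, edgeR adjusted p = 0.156). Ulk1, the kinase that starts autophagy, stood at 54.8 and 65.2 CPM in aged monocytes, against 68.1 and 78.0 CPM in young monocytes (-0.28 ± 0.10, edgeR adjusted p = 0.145). Eif4ebp2, a translation repressor, stood at 75.7 and 66.3 CPM in aged monocytes, against 88.3 and 85.3 CPM in young monocytes (-0.29 ± 0.084, edgeR adjusted p = 0.0705). In all 4 genes the ages did not overlap, but since they were chosen by their values this cannot be set beside a background. Over the 16 tested substrates and outputs of mTOR complex 1 the ages did not overlap in 10, beside 51.6% of all tested genes.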
